A study of Homo sapiens with 6 samples.

Results

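NF-kB pathway and feedback genes were examined in U2932 cells, an established human cell line of diffuse large B cell lymphoma origin. The genes comprise NF-kB subunits, IkB proteins, the kinases and adaptors upstream of them, the regulators that switch the pathway off, and target genes. They were chosen by symbol, and 32 of the 33 symbols were found among the 34675 rows of the comparison. The remaining one, MAP3K14, has a row under its gene identifier (ENSG00000006062) with no symbol, and is given beside the 32. The study set 3 samples infected with a short hairpin RNA against PRDM11 against 3 infected with a scrambled hairpin carried by pLKO-puro, and all were selected with puromycin for 3 days. One hairpin and one cell line were used, and whether the samples were separate cultures is not stated, so that p-values here rest on a spread between samples that may be technical.

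The comparison was deposited as means of conditions named only A and B. Which of them is the knockdown is not stated in any header or label, and differences are therefore written as condition A over condition B. PRDM11 itself had 268, 272 and 323 normalised reads in the libraries of condition A, against 565, 516 and 545 in those of condition B (log2 ratio -0.91 and adjusted DESeq p = 1.76e-08 from the authors' deposited table). Values are normalised reads, that is, read counts divided by a size factor for each library. The reads of single libraries were recovered from the printed digits of the means, and libraries 1 to 3 of a condition run from the largest to the smallest size factor, with no link to the replicate numbers of the labels. Size factors were 1.21, 1.03 and 0.768 for condition A and 1.09, 1.05 and 0.951 for condition B, and the means summed to 43812481 normalised reads for condition A and 41847907 for condition B. Of the B cell markers, MS4A1 had mean normalised reads of 84146 for condition A and 71390.5 for condition B, and PAX5 had 35652 and 35450.2. The means of the T cell markers with a row summed to 108.2 for condition A and 116.8 for condition B over 5 genes, and those of the myeloid markers to 70.4 and 59.2 over 6 genes. Those of the epithelial and fibroblast markers summed to 1364.6 for condition A and 1341.9 for condition B over 6 genes. Most of this was EPCAM, with 1284.6 for condition A and 1242.2 for condition B.

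NF-kB factors are dimers of REL family proteins that IkB proteins hold in the cytoplasm. In the canonical branch, signals from antigen, Toll-like or tumour necrosis factor receptors converge on the IkB kinase complex, which marks IkB proteins for degradation and frees the dimers. Diffuse large B cell lymphomas of the activated type are known for running this branch without an outside signal. Freed NF-kB induces its own inhibitors, NFKBIA and TNFAIP3 among them, and the levels of such feedback genes are commonly read as a gauge of the pathway. A second, non-canonical branch is driven by MAP3K14, whose level TRAF2, TRAF3 and BIRC3 keep low, and it processes the product of NFKB2 to release dimers with RELB.

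With adjusted p under 0.05 as the call (DESeq, from the authors' deposited table), 0 of the 32 genes were called, where 881 of 34675 rows were, which is 2.54%. The calls over all rows were 335 higher and 546 lower in condition A. Among rows with a mean of at least 50 normalised reads, as all 32 genes had, 6.04% passed. At an unadjusted DESeq p of 0.05 the genes past the threshold were 6 of 32, namely CHUK, which had the lower value in condition A, and CD83, IKBKE, RELA, RELB and REL, which had the higher. This is 18.8% of the genes, against 9.61% of all rows and 20.8% of rows with a mean of at least 50. By direction, the higher genes were 15.6% of the NF-kB genes, against 4.31% of all rows and 8.91% of rows with a mean of at least 50, and the lower one was 3.12%, against 5.3% and 11.9%. None of the 32 means differed by 1.5-fold or more, as 4.78% of rows with a mean of at least 50 did. The log2 ratios ran from -0.46 for CHUK to 0.52 for RELA, 19 above 0 and 13 below, with a median of 0.078 against -0.0024 over all rows with a mean of at least 50.

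A limma test of the reads recovered for each library called more genes than the deposited comparison in general, 1546 of 16650 or 9.29%, and here it called 3 of 30. CHUK was lower in condition A, while RELA and CD83 were higher, beside 5.54% lower and 3.75% higher over all genes tested. Of the 12604 genes tested that had a mean of at least 50, as all 30 had, 857 were called lower and 542 higher. MAP3K14 was not called. The number of calls changed as single libraries were dropped, here and over all genes. Limma called 0 of the 30 genes when library 2 of condition A, library 2 of condition B or library 3 of condition B was dropped, and 408, 382 and 404 of all 16650 genes in those fits. It called 7 of the 30, and 2203 of all genes, when library 1 of condition A was dropped, and 2 of the 30, and 1069 of all genes, when library 1 of condition B was. In these fits the log2 ratios of the 3 genes kept their sign, at -0.57 to -0.34 for CHUK, 0.36 to 0.64 for RELA and 0.24 to 0.28 for CD83. The libraries of condition A did not overlap those of condition B for 11 of the 30 genes, 8 higher and 3 lower in condition A, which is 36.7% of them against 34.4% of recovered rows with a mean of at least 50. The higher ones were 26.7% of the NF-kB genes, against 15.7% of those rows, and the lower ones 10.0%, against 18.7%.

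**Figure D1:**
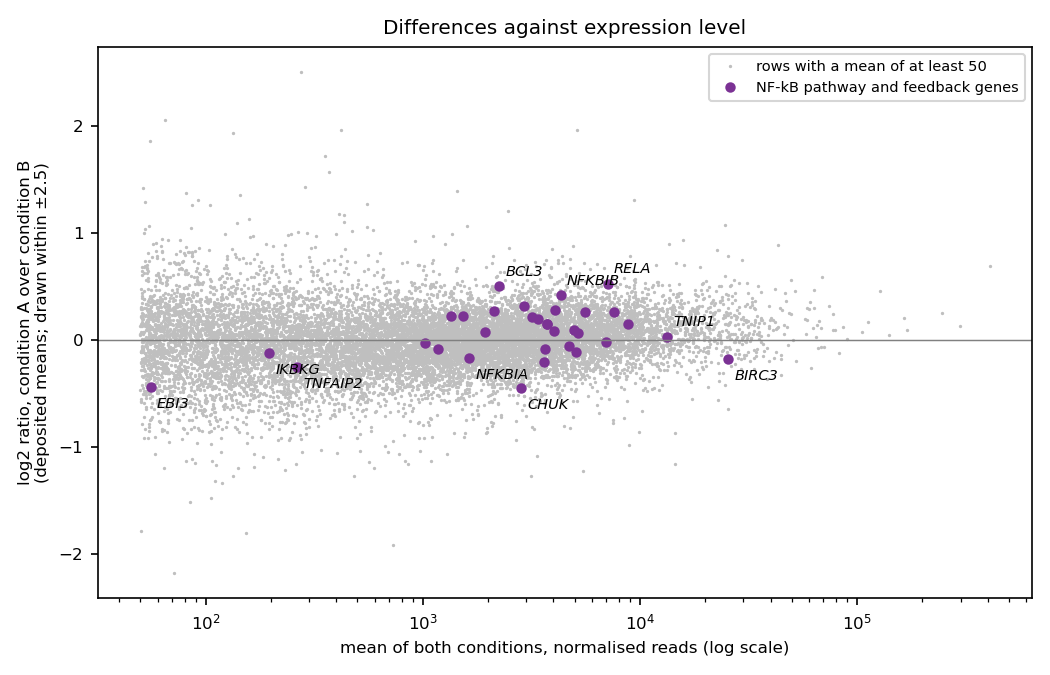
Deposited log2 ratio of condition A over condition B (vertical axis) against the mean of both conditions in normalised reads (log scale) for rows with a mean of at least 50 in grey, with the 32 NF-kB pathway and feedback genes in purple. All 32 lie between -0.46 and 0.52 on the log2 scale, within the grey cloud at their level.

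Of the 31 genes with recovered reads, 28 had a mean of at least 1000 normalised reads. Levels between genes were compared as mean normalised reads per kilobase of merged GENCODE exons. The merged length takes in the exons of every annotated transcript, which lowers genes with a long merged length, such as SOD2 with 16493 bases. On this scale BIRC3, the ubiquitin ligase that is both a target and a regulator of the pathway, was first among the 33 genes with 3181 for condition A and 3604 for condition B. CD83, a surface protein of activated B cells, followed with 3298 for condition A and 2761 for condition B, and TNIP1, a ubiquitin-binding partner of TNFAIP3, with 2329.8 for condition A and 2290.1 for condition B. The order of these neighbours is not fixed, since BIRC3 was above CD83 in condition B and below it in condition A. Among the inhibitors NFKBIB had 2125 for condition A and 1594 for condition B, well above the feedback inhibitor NFKBIA with 648 for condition A and 730.2 for condition B. At the bottom were EBI3, a subunit of heterodimeric cytokines, with 36.7 for condition A and 50.1 for condition B, and TNFAIP2 with 47.8 for condition A and 57.1 for condition B. IKBKG, the scaffold of the kinase complex, had 53.3 for condition A and 58.2 for condition B, but it has a near-identical pseudogene copy, so its level is uncertain.

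**Figure D2:**
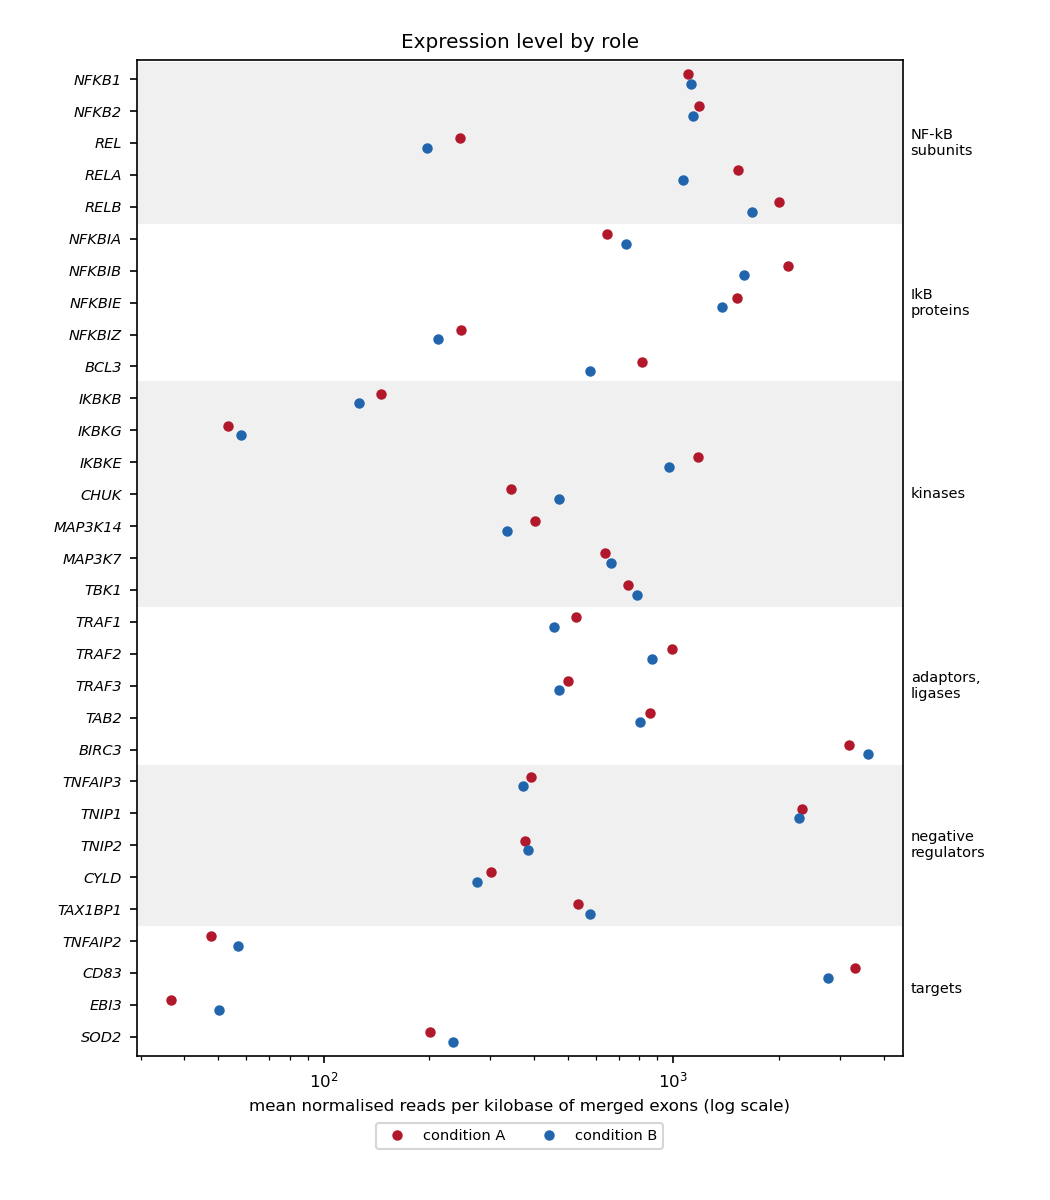
Mean normalised reads per kilobase of merged exons (log scale) for the genes reported by name, ordered by role, in condition A (red, upper point of each row) and condition B (blue, lower point). Levels span from 36.7 for EBI3 in condition A to 3604 for BIRC3 in condition B, and the points of a gene lie close together.

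The promoters of the genes were examined because several of them are known to be targets of the factors they encode. RefSeq promoter windows on GRCh38.p14, each from 250 bases before to 50 after a start site, were found for 30 of the 33 genes, and RELB, NFKBIE and IKBKB had none. The kappaB consensus, the known binding motif of NF-kB dimers, was searched on both strands of each window, with overlapping matches kept. It was found in at least 1 window of 14 of the 30 genes, which is 46.7%, against 7.09% of all 27305 genes with a window. By window, matches were in 34% of the 50 windows of these genes, against 5.91% of all 35116 windows. Known targets of NF-kB were part of the choice of genes, so these shares are a description and not a test. A match is a description of the letters and not a binding site. The windows of 3 feedback genes, NFKBIA, TNFAIP3 and BIRC3, are shown whole, 5′ to 3′ along the gene, with the matches in capitals.
NFKBIA, chr14:35404700-35404999, minus strand: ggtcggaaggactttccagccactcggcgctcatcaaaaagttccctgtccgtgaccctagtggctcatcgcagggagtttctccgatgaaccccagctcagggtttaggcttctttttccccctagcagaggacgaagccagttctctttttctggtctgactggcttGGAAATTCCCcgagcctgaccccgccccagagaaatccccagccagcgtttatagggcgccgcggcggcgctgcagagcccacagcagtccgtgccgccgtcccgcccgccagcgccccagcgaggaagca
TNFAIP3, chr6:137867009-137867308, plus strand: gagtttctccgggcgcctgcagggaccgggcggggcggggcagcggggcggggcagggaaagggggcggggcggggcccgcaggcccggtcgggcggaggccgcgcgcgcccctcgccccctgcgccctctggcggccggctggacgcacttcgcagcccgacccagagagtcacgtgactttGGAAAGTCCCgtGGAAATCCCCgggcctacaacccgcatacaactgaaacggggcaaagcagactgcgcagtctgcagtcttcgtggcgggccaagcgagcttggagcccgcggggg
BIRC3, chr11:102317234-102317533, plus strand: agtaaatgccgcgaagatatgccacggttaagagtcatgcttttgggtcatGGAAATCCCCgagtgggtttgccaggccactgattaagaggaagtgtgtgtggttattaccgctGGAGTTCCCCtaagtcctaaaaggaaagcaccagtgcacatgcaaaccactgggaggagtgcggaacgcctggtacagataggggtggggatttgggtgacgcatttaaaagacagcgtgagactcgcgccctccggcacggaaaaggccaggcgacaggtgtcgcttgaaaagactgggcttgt
The TNFAIP3 window holds a pair of matches next to each other just before the start site, the NFKBIA window one at a like distance, and the BIRC3 window a pair farther upstream. For genes that encode NF-kB subunits, IkB proteins or the target CD83, 1 stretch with a match is shown per gene with 10 bases on each side, while NFKB2 and NFKBIZ have further matches that are not shown. These genes were picked since they encode the products whose levels the comparison follows.
NFKB1, chr4:102501300-102501329, plus strand: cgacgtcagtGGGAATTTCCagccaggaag
NFKB2, chr10:102394461-102394491, plus strand: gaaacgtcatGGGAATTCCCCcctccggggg
REL, chr2:60881517-60881547, plus strand: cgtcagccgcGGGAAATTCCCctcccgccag
NFKBIB, chr19:38899931-38899961, plus strand: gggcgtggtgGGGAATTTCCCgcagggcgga
NFKBIZ, chr3:101827757-101827786, plus strand: tttttggtctGGGAATTTCCagtgtgcaga
BCL3, chr19:44748700-44748729, plus strand: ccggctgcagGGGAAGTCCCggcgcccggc
CD83, chr6:14117686-14117717, plus strand: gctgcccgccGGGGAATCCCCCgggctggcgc
The stretches of NFKB2, REL, NFKBIB and CD83 read as the motif on both strands, so that a run of overlapping matches is in capitals. The 14 genes with a match had a median log2 ratio of 0.086 and the 15 of the 32 that have a window without a match -0.088. Among the genes with recovered reads, the libraries did not overlap for 4 of 12 with a match, all 4 higher in condition A, and for 6 of 15 without, 3 higher and 3 lower, beside 34.4% of all recovered rows with a mean of at least 50. Whether the sets differ was not tested. Neither set could hold a gene called in the authors' deposited table, since 0 of the 32 were called there.

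Among the subunits, RELA, which carries the main transactivation domain of canonical dimers, had the largest ratio. RELA (ENSG00000173039, coding intervals on chromosome 11 from 65421852 to 65430303 in hg19) had 6934, 7976 and 10249.7 normalised reads in the libraries of condition A, against 6741, 5409.7 and 5369 in those of condition B. The groups did not overlap, but library 3 of condition A stood well above the rest and library 1 of condition A was close to library 1 of condition B. Its log2 ratio was 0.52, and the standard error implied by the p-value was 0.24 (adjusted DESeq p = 0.413 from the authors' deposited table). In limma its 95% interval was 0.21 to 0.82 (limma adjusted p = 0.0445), and the ratio moved from 0.36 to 0.64 as single libraries were left out. REL, the subunit most typical of lymphocytes, had 3178, 3089 and 3432 normalised reads in the libraries of condition A, against 2026, 3003 and 2788 in those of condition B. The groups again did not overlap, and library 1 of condition B was far below the other 5. RELB, the partner of the non-canonical branch, had 5367, 6272 and 6582 in condition A, against 5451, 4913 and 4902 in condition B, and the groups overlapped. Both had smaller ratios than RELA, 0.31 for REL and 0.26 for RELB, and were not called (limma adjusted p = 0.137 and 0.113). The limma ratio of REL was 0.33 with all libraries and 0.16 without library 1 of condition B.

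The precursors that give rise to the DNA-binding partners of these proteins differed least. NFKB1 had 6791, 6905 and 7038 normalised reads in the libraries of condition A, against 7037, 7016 and 7015 in those of condition B. These 6 values lay closer together than those of the other subunits, and the 95% interval of the log2 ratio was -0.17 to 0.13. NFKB2 had 4730.1, 5424 and 5811 in condition A, against 5447, 5038 and 4815 in condition B, with the values of condition B inside the range of condition A and an interval of -0.15 to 0.26. A change of 1.5-fold in either direction lies outside both intervals.

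**Figure D3:**
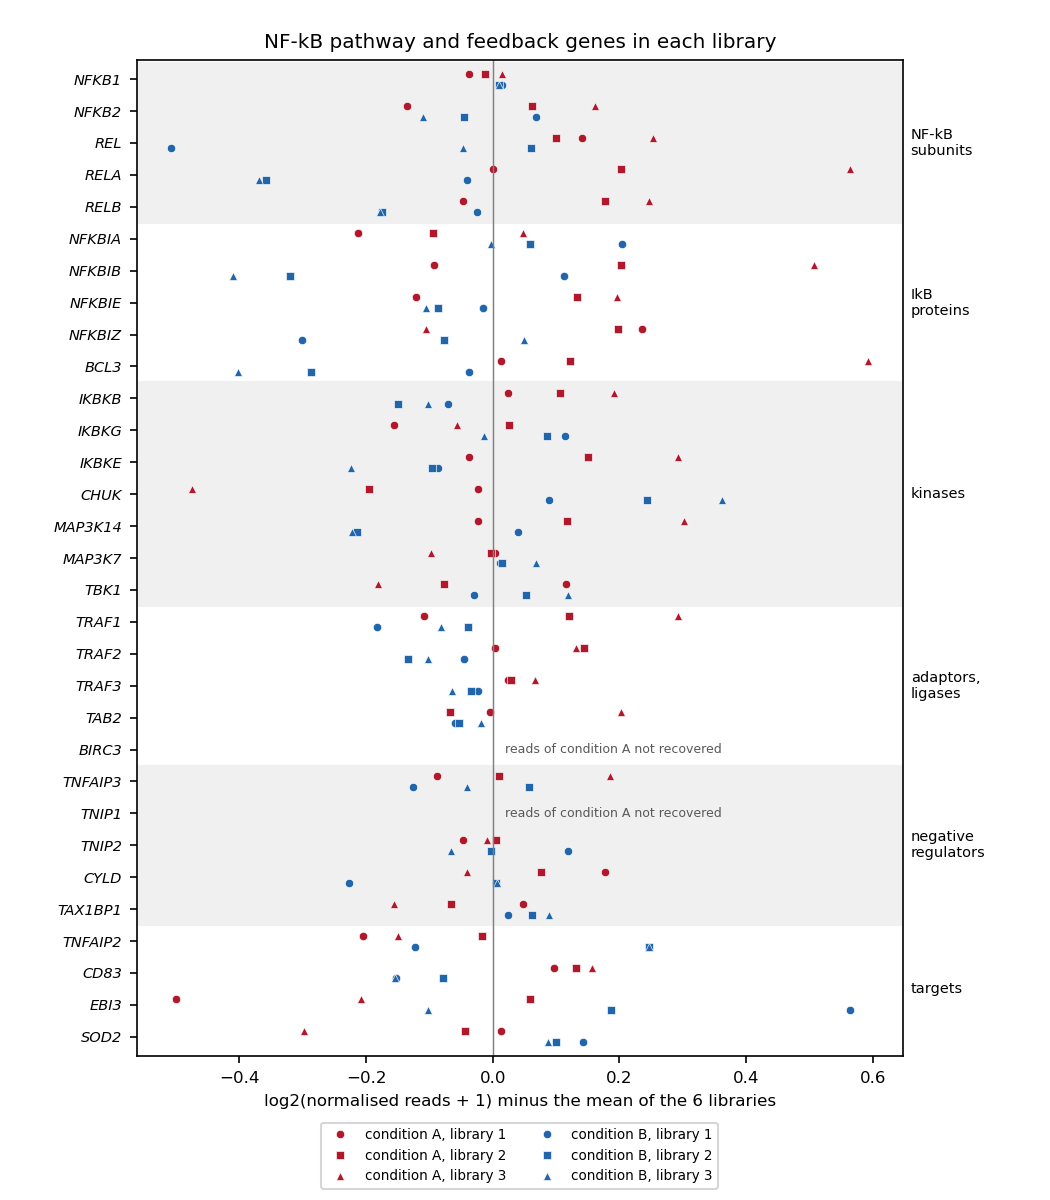
For each gene reported by name, log2(normalised reads + 1) of each library minus the mean of the 6 libraries, with condition A in red (upper row of a gene) and condition B in blue (lower row), and the symbol shape giving the library number. RELA, REL, BCL3 and CD83 show all red points right of the blue ones, CHUK shows all red points left of them, and for most other genes the colours mix.

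The IkB proteins were split. NFKBIA (ENSG00000100906, coding intervals on chromosome 14 from 35871222 to 35873850 in hg19), the rapidly resynthesised inhibitor of canonical dimers, had 1405, 1525 and 1683 normalised reads in the libraries of condition A, against 1877, 1696 and 1625 in those of condition B. The groups overlapped, with a log2 ratio of -0.17 (adjusted DESeq p = 0.731 from the authors' deposited table). It was the 1 IkB gene with a negative ratio. NFKBIB, a slower inhibitor, had 3958, 4858 and 5999 in condition A, against 4560.4, 3378 and 3174 in condition B. Library 1 of condition B lay inside the range of condition A, so the groups overlapped in spite of a log2 ratio of 0.41 (limma adjusted p = 0.131), which was 0.26 in limma without library 3 of condition A. NFKBIE, another inhibitor of this kind, had a ratio of 0.14 and a 95% interval of -0.068 to 0.34.

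The nuclear members of the family had positive ratios. BCL3 (ENSG00000069399, coding intervals on chromosome 19 from 45252048 to 45262869 in hg19), which binds homodimers of the precursor products at DNA and can activate transcription, had 2217, 2392 and 3315 normalised reads in the libraries of condition A, against 2140.0, 1801 and 1662 in those of condition B. The groups did not overlap, although library 1 of condition B came close to library 1 of condition A, and library 3 of condition A was again the highest. Its log2 ratio was 0.50 (0.27 as the implied standard error; adjusted DESeq p = 0.576 from the authors' deposited table, limma adjusted p = 0.0643). The limma ratio of BCL3 was 0.49 with all libraries and 0.31 without library 3 of condition A. NFKBIZ, an inducible cofactor of selected targets, had 1583, 1541 and 1249 in condition A, against 1091, 1274 and 1391 in condition B, with a ratio of 0.22. Here library 3 of condition A was the lowest of its condition and fell within the values of condition B.

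The kinases did not move as a block. CHUK (ENSG00000213341, coding intervals on chromosome 10 from 101949358 to 101989289 in hg19), the IKK-alpha subunit that serves the non-canonical branch, had 2732, 2424 and 1999 normalised reads in the libraries of condition A, against 2954, 3287 and 3571 in those of condition B. The groups did not overlap, and the spread within condition A was the wider one. CHUK had the smallest p of all 32 genes, with a log2 ratio of -0.46 (0.16 as the implied standard error; adjusted DESeq p = 0.103 from the authors' deposited table). The limma interval was -0.72 to -0.20 (limma adjusted p = 0.0368), and the ratio ran from -0.57 to -0.34 with single libraries left out. IKBKB, the IKK-beta subunit that serves the canonical branch, had 1552, 1642 and 1743 in condition A, against 1452, 1375 and 1421 in condition B. The groups did not overlap, with the higher values in condition A and a ratio of 0.22, opposite in sign to that of CHUK (limma adjusted p = 0.121). IKBKE, an IKK-related kinase of interferon and NF-kB signalling, had 3946, 4494 and 4957 in condition A, against 3813, 3789.6 and 3467 in condition B. It too showed no overlap, with a ratio of 0.28 (limma adjusted p = 0.0986).

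TBK1, the closest relative of IKBKE, had a ratio of -0.091 and MAP3K7, the kinase that activates the IKK complex, one of -0.063. MAP3K7 had 4705, 4686 and 4388 in condition A, against 4732, 4741 and 4919.5 in condition B, which did not overlap but differed by little. The 95% intervals were -0.30 to 0.11 for TBK1 and -0.22 to 0.10 for MAP3K7. MAP3K14, the kinase of the non-canonical branch, had 2073, 2287 and 2599 normalised reads in the libraries of condition A, against 2167, 1816 and 1807 in those of condition B. The groups overlapped through library 1 of condition B, and the ratio was 0.27 (adjusted DESeq p = 0.633 from the authors' deposited table). MAP3K14 has an antisense neighbour, and since the strand setting of the counting is not given, the reads of the pair cannot be told apart. IKBKG had 176, 199.9 and 189 in condition A, against 213, 208 and 195 in condition B, a ratio of -0.12.

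Adaptors and ubiquitin ligases had ratios from -0.18 to 0.21. TRAF1, an inducible adaptor, had 2923, 3426 and 3863 in condition A, against 2777, 3069 and 2979 in condition B, and TRAF2, which recruits the ligases, had 3405, 3754 and 3718 in condition A, against 3292, 3095 and 3164 in condition B. The groups overlapped for TRAF1 and did not for TRAF2, whose ratio was 0.19 (limma adjusted p = 0.149). TRAF3, the adaptor that marks MAP3K14 for degradation, had 4073, 4085 and 4194 in condition A, against 3937, 3910.4 and 3831 in condition B. The TRAF3 groups were separate with a ratio of 0.081, and the values within a condition were very close. TAB2, the ubiquitin-binding partner of MAP3K7, had a ratio of 0.092. BIRC3 had mean normalised reads of 23918 for condition A and 27092 for condition B according to the authors' deposited table. Its ratio there was -0.18, with 0.20 as the implied standard error; adjusted DESeq p = 1 from the authors' deposited table). Its library values could be recovered for condition B alone, where they were 23758, 28578 and 28939.

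The ratios of the negative regulators ran from -0.11 to 0.14. TNFAIP3 (ENSG00000118503, coding intervals on chromosome 6 from 138192365 to 138202453 in hg19), the ubiquitin-editing enzyme whose promoter matches are shown above, had 1813, 1941 and 2192 normalised reads in the libraries of condition A, against 1767, 2006 and 1874 in those of condition B. The groups overlapped, with a log2 ratio of 0.074 and a 95% interval of -0.14 to 0.28. Its partners TNIP1 and TNIP2 had ratios of 0.025 and -0.035. TNIP1 had mean normalised reads of 13497 for condition A and 13267 for condition B according to the authors' deposited table, and its libraries of condition B alone could be recovered, at 14814, 12759 and 12227. CYLD, a deubiquitinase, had 4203, 3918 and 3615 in condition A, against 3177, 3731 and 3735 in condition B, a ratio of 0.14, and TAX1BP1, an adaptor of TNFAIP3, had -0.11.

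Of the remaining target genes, CD83 was the most even. CD83 (ENSG00000112149, coding intervals on chromosome 6 from 14118043 to 14135464 in hg19) had 8116, 8312 and 8454 normalised reads in the libraries of condition A, against 6828, 7185 and 6816 in those of condition B. The groups did not overlap and the values within each condition were close together, so that a log2 ratio of 0.26 had a narrow interval of 0.10 to 0.41 (limma adjusted p = 0.0444, adjusted DESeq p = 0.382 from the authors' deposited table). SOD2, the mitochondrial superoxide dismutase, had 3614, 3475 and 2913 normalised reads in the libraries of condition A, against 3954, 3838 and 3808 in those of condition B. These groups did not overlap either, but in the other direction, with a ratio of -0.21 (limma adjusted p = 0.153), which was -0.13 in limma without library 3 of condition A. TNFAIP2 had a ratio of -0.26 and EBI3 of -0.45. EBI3 had only 38, 56.6 and 46.9 in condition A, against 80.7, 61.9 and 50.5 in condition B, and the groups overlapped.

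**Figure D4:**
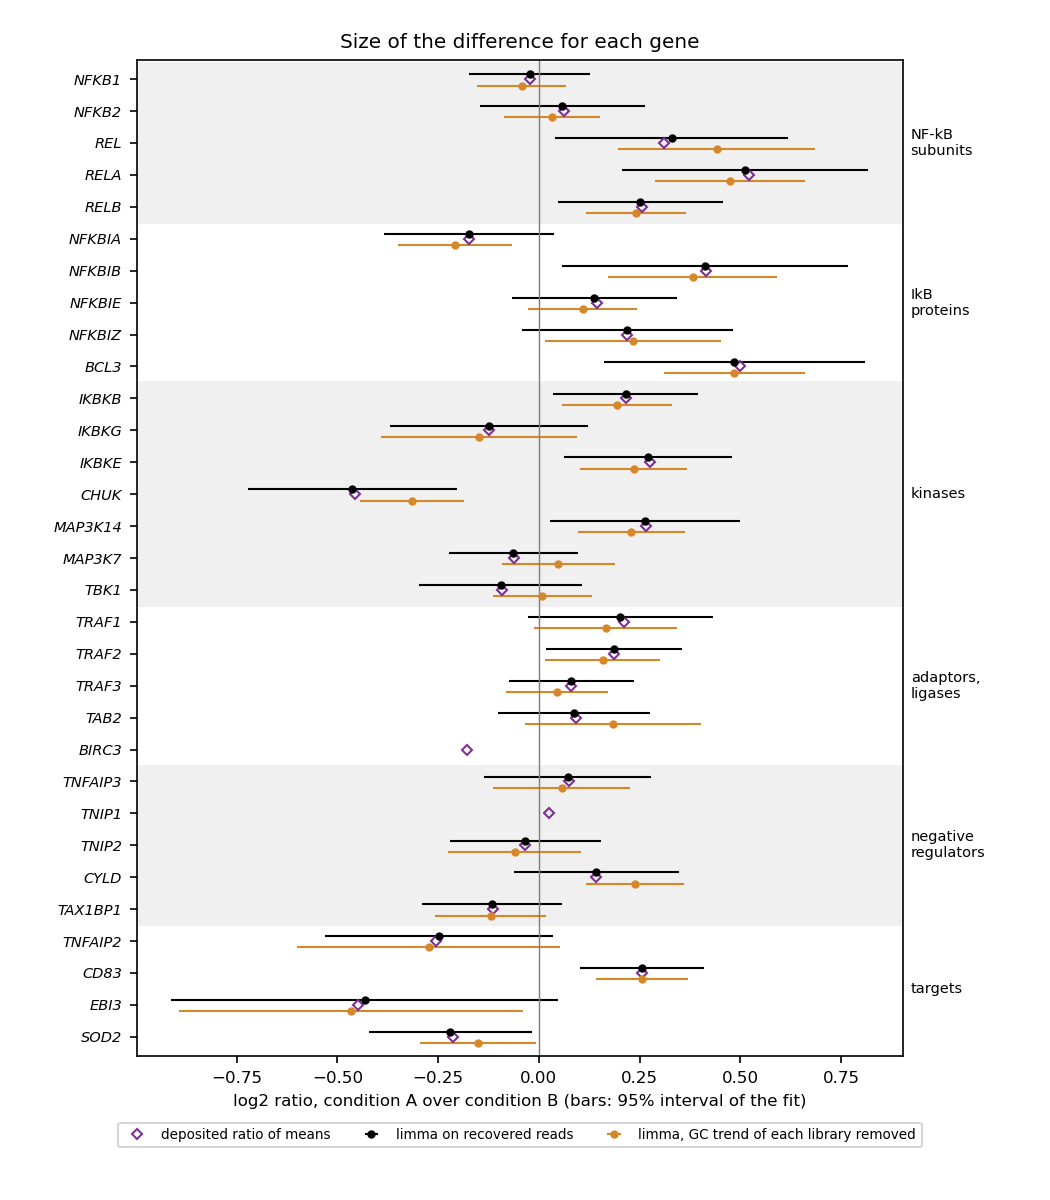
Log2 ratio of condition A over condition B for each gene reported by name, by role, from the deposited means (open diamonds), from limma on recovered reads (black, with 95% intervals) and from limma after removal of each library's GC trend (orange, with 95% intervals). The black intervals, which are not adjusted for the number of genes, exclude 0 for CHUK and SOD2 below it and for RELA, BCL3, CD83, RELB, REL, IKBKE, IKBKB, NFKBIB, MAP3K14 and TRAF2 above it, and after adjustment limma called CHUK, RELA and CD83.

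The libraries within a condition differed in a way that followed the base composition of the transcripts. Over 11075 genes with a mean of at least 100, the deviation of a library from its condition mean was related to transcript GC content with a Spearman's rho of -0.67, -0.23 and 0.63 in libraries 1, 2 and 3 of condition A and 0.64, -0.48 and -0.57 in those of condition B. These are correlations across genes, which are not independent replicates. Over the 31 NF-kB genes with recovered reads the rho was -0.74, 0.25 and 0.50 for condition A and 0.67, -0.46 and -0.69 for condition B, of the same sign as over all genes except in library 2 of condition A. Of the 15 with a transcript GC content above their median of 53.1%, 0 were above the condition mean in library 1 of condition A and 14 were in library 3, as were 13 in library 1 of condition B and 2 in library 3. RELA, with a GC content of 57.1%, BCL3 with 67.4% and NFKBIB with 60.5% were highest in library 3 of condition A, and CHUK, with 36.3%, was lowest there. The part of library composition in the ratios between conditions was not tested beyond the fit that follows. The median coefficient of variation of the 28 genes with recovered reads and a mean of at least 1000 was 10.1% for condition A and 6.23% for condition B, against 7.81% and 6.26% over all 6224 such genes.

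In an alternative chosen after seeing the data, the GC trend of each library was removed, taken from its deviation from the mean of both conditions together. Any GC trend between the conditions was therefore removed as well. With it limma called 12 of the 30 genes, 10 higher and 2 lower in condition A, beside 3270 of 16253 genes or 20.1% in all. Over all genes the split was then 1688 higher and 1582 lower. The higher ones were 33.3% of the NF-kB genes, against 10.4% of all genes tested, and the lower ones 6.67% against 9.73%. Of the 12406 genes tested that had a mean of at least 50, as all 30 had, 1550 were called higher and 1471 lower. The higher genes included RELA, REL, RELB, BCL3, NFKBIB, IKBKB, IKBKE, CYLD and CD83, and MAP3K14 was called higher beside them. The lower genes were CHUK, with a log2 ratio of -0.32 (limma adjusted p = 0.00368), and NFKBIA, with -0.21 (limma adjusted p = 0.0418). RELA had a ratio of 0.47 and BCL3 of 0.48 in this fit, close to their deposited values. CYLD, whose transcript has a GC content of 39.7%, had a larger ratio than before, 0.24. TNFAIP3, NFKB1 and NFKB2 were not called in this fit either.

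**Figure D5:**
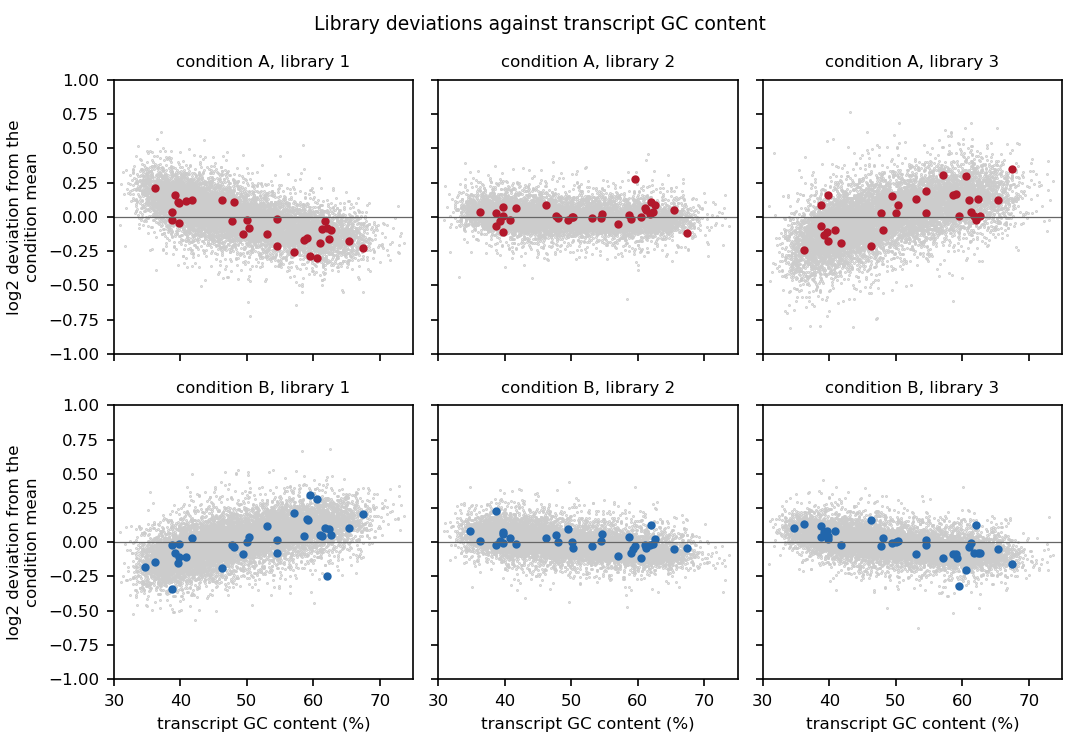
Log2 deviation of each library from the mean of its condition (vertical axis) against transcript GC content in percent (horizontal axis), 1 panel for each library, with genes of a mean of at least 100 in grey and NF-kB pathway and feedback genes in red (condition A) or blue (condition B). Values fall with GC content in library 1 of condition A and libraries 2 and 3 of condition B, and climb with it in library 3 of condition A and library 1 of condition B.

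Pathway components outside the 32 genes also gave few calls, but their log2 ratios reached further, from -0.65 for IRAK2 to 0.66 for NFKBID. NFKBIL1, which had no reads in condition B, is left out of this range. NFKBID was not called (adjusted DESeq p = 0.231 from the authors' deposited table). Of 46 listed, 0 were higher and 1 was lower in condition A in the authors' deposited table, beside 0.966% higher and 1.57% lower over all rows. The median log2 ratio of the 43 with a mean of at least 50 was 0.018, and 6.04% of all rows with such a mean were called in either direction. The 1 component called was IRAK2, a kinase of Toll-like and interleukin receptors. It had 100.1, 98.5 and 142 normalised reads in the libraries of condition A, against 187, 169 and 177 in those of condition B. Its log2 ratio was -0.65 (adjusted DESeq p = 0.00792 from the authors' deposited table). In limma, 3 others were called higher among the 42 tested, namely TAB1, TIRAP and TICAM1, beside 3.75% of all genes tested. TICAM1, an adaptor of some Toll-like receptors, had 2778, 3281 and 4336 in condition A, against 2458, 2236 and 2098 in condition B, without overlap (limma adjusted p = 0.029).

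Target genes of B cells outside the 32 included more calls. Of 30 with a row among 34 listed, 4 were higher and 1 was lower in condition A in the authors' deposited table, beside a background of 0.966% higher and 1.57% lower over all rows. This list and that of the pathway components were chosen with earlier results of these data known. Their shares of calls are therefore a description and not a test. The median log2 ratio of the 26 with a mean of at least 50 was 0.13. Of all 13565 rows with such a mean, 6.04% were called, 296 higher and 523 lower. The higher genes were PIM1, a serine and threonine kinase, the chemokine genes CCL3 and CCL4, and IRF4, a transcription factor of activated B cells, and the lower one was STAT5A, a cytokine signal transducer. All 5 also answer to other pathways. PIM1 had 7699, 8022 and 7938 normalised reads in the libraries of condition A, against 4713, 4772 and 4993 in those of condition B, which did not overlap (log2 ratio 0.71, adjusted DESeq p = 3.74e-07 from the authors' deposited table). STAT5A had 2363, 2461 and 2409 in condition A, against 3816, 3217 and 3368 in condition B, a ratio of -0.52 (adjusted DESeq p = 0.000854 from the authors' deposited table). CCL4 had 438, 606 and 662 in condition A, against 305, 219.9 and 234 in condition B. In limma, 5 of the 25 genes tested were called higher and 1 lower, beside 3.75% and 5.54% of all genes tested. CD69 and FAS were among the higher ones (limma adjusted p = 0.0101 and 0.0314). CD69 had 587, 418 and 250 in condition A, against 141, 156 and 170 in condition B, a deposited log2 ratio of 1.42. Over the whole list, the libraries of the conditions overlapped for 15 of the 28 genes with recovered reads, while 10 were higher and 3 lower in condition A without overlap. Among all recovered rows with a mean of at least 50, which not all 28 genes reached, 15.7% were higher and 18.7% lower without overlap.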

How the data were processed

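RNA was sequenced from 6 samples of U2932 cells. The submitters' processing notes name STAR, HTSeq 0.5.4p5 and DESeq 1.14.0 on hg19, and their settings and annotation are not given in the sources used. Per the file headers, the deposited table gives a mean signal in normalised reads over both conditions and over each of A and B, a fold (the ratio of B to A), its log2 and a p-value with its adjustment. The deposited fold and adjusted p-value matched recomputed values. The log2 ratio is given here with its sign turned. A second deposited file gives hg19 coding intervals with a score that was not used. Its starts were counted from 1, since the lengths of 92.5% of genes with a single interval were then multiples of 3.

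A condition mean is a weighted sum of 3 whole numbers printed with 15 digits, so an integer search gave the reads of each library. All splits were searched up to a mean of 1500, and above it only those with each library at 0.7 to 1.4 times the mean, up to 10000 for condition A and 30000 for condition B. The search gave 1 solution for 33728 of 33765 rows for condition A and 34530 of 34555 for condition B. Recovered reads per library came to 18132989 to 28146447 in condition A, against 33316580 to 39293078 for condition B. These cover 53.3% and 84.7% of the summed means and are not the full depth. The search was tested on simulated means.

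Calls used the adjusted p under 0.05 that the authors made with DESeq. Standard errors are the log2 ratio divided by the normal deviate of the deposited p, an approximation. limma 3.58.1 in R 4.3.3, with a mean-variance trend, was run on log2(normalised reads + 1) of genes whose mean reached 10, with Benjamini-Hochberg adjustment over all of them, and was tested on simulated data. Ratios on that scale are slightly understated for low genes. Transcript GC content (longest transcript) and merged exon lengths came from GENCODE 29, matched by identifier for 32769 rows and by symbol for 285. The GC alternative removed from each library a spline with 5 degrees of freedom, fitted to its deviation from the mean over the libraries of both conditions. The members and gene lists were chosen with earlier results of these data known. Values per library are given for the genes with the smallest p and the highest mean of each role, and others were added after their values were seen. The design had assumed the deposited comparison, and 0 columns of single samples were present. A few genes are counted in the totals and not reported here by name.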

Additional observations from a re-analysis of the deposited data

How the results depend on the processing

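No paired analysis was possible because the tables carry no replicate numbers. Against 881 genes called in the deposited comparison, limma called 1546 (1556 with a pseudocount of 4, 1502 with rescaled libraries, 1597 with no filter, 3270 with the GC trend removed, and 382 to 2203 with a library left out, with 1631 without library 3 of condition A). Against 0 of the 32 NF-kB genes, limma called 3 (3 with a pseudocount of 4, 3 with rescaled libraries, 3 with no filter, 12 with the GC trend removed, and 0 to 7 with a library left out). The lowest counts, 0 NF-kB genes each, came without library 2 of condition A, where 408 genes were called in all, without library 2 of condition B, where 382 were, and without library 3 of condition B, where 404 were. The highest came without library 1 of condition A. Against 1 other pathway component, limma called 4 (4, 4 and 4 with the same 3 changes, 7 with the GC trend removed, and 0 to 5 with a library left out, 0 without the same 3 libraries). Against 5 other target genes, limma called 6 (6, 6 and 7 with the same 3 changes, 10 with the GC trend removed, and 4 to 9 with a library left out). The cause was not tested. The median log2 ratio of the NF-kB genes was 0.078 in the main comparison and 0.038 to 0.10 with a library left out. Single ratios that turned sign were all near 0: NFKB2 at -0.0080 and TNFAIP3 at -0.0031 without library 3 of condition A, TNIP2 at 0.017 without library 1 of condition B, and MAP3K7 at 0.048 and TBK1 at 0.0088 with the GC trend removed. Adjusting the deposited p over rows with a mean of at least 10, or calling at 0.1, left 0 NF-kB genes called. The reads of BIRC3 and TNIP1 in condition A could not be recovered, so limma gives no value for them. The same holds for NFKBID and UBE2D3 among the other components, and for IRF4 and PLEK among the other target genes.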
